A study of Zea mays with 24 samples.

Results

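The pericarp and the endosperm of the maize seed were compared, tissues that lie against each other in the kernel and differ in parentage. The comparison rests on 8 of the 24 samples of the series, chosen by their tissue label, with 4 of pericarp (Per) and 4 of endosperm (End). The plants belonged to the inbred line B73, were wild type and received no treatment. Their greenhouse was kept at 24 °C during the day and 19 °C during the night, the lights gave 100 W per square metre for 16 h, and a sample took about 100 mg of tissue. Replicates 1 to 4 of both tissues were harvested on the same days, 27 April, 1 May, 4 May and 18 May. The labels give no age of the seeds in days after pollination, no number of plants per sample and no account of how the pericarp was freed from the tissue beneath it. The remaining 16 samples, of embryo (Emb), apical scutellum (AS), endosperm adjacent to the scutellum (EAS) and scutellar aleurone layer (SAL), entered the fit and are used below only to show where else in the seed a transcript was found.

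The pericarp is the fruit wall. It grows from the ovary of the mother plant and carries only the mother's genome. The endosperm arises from the second fertilisation of the embryo sac, carries genomes of both parents, and fills with starch and storage proteins, with the aleurone as its outermost cell layer. MicroRNAs are short RNAs that guide ARGONAUTE proteins to matching messenger RNAs. They are cut from longer transcripts of MIR genes, which are capped and polyadenylated like messenger RNAs. The counts of MIR loci given here are reads assigned to those precursors, and the mature microRNAs were not measured. Many plant microRNA families act on transcription factors that shape organs, or on the receptors and response factors of the hormone auxin.

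Counts were given for 41614 genes, known only by identifiers, and for 154 named microRNA precursor loci. Of the 41614 identifiers, 0 matched the gene table at hand, so the named results concern the microRNA loci and genes are given by identifier with no function. For the same reason 0 of 19 planned gene lists were tested, and the labelled tissues could not be checked against their defining markers. Reads counted in features ranged from 37.6 M to 52.2 M in the pericarp samples and from 43.8 M to 53.3 M in the endosperm samples. Levels are CPM, counts scaled by library size, with library sizes adjusted by TMM, a method that centres the bulk of features. They are not corrected for transcript length, so sums, shares and rankings over several loci or features describe reads, not numbers of transcripts. A feature was called where its edgeR adjusted p was under 0.05, and called 8-fold where its fitted fold was also 8 or more. The SE given with a log2 fold change (pericarp over endosperm) comes from the test's F statistic and gives no interval. In bulk tissue, fewer cells that hold a transcript and less of it per cell cannot be told apart.

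Within the MIR167 family, the precursors of a microRNA that acts on transcripts of the auxin response factors ARF6 and ARF8, some loci were higher in endosperm and others in pericarp. Of its 9 listed loci 7 were tested and all 7 were called: 3 were 8-fold higher in endosperm, 1 was higher there by less, 2 were 8-fold higher in pericarp and 1 was higher there by less. Over all 26543 tested features 81.6% were called at any fold, 43.8% toward pericarp and 37.8% toward endosperm. At 8-fold these shares were 10.9% toward pericarp and 3.28% toward endosperm. MIR167g had 2.92, 2.65, 3.54 and 4.54 CPM in pericarp replicates 1 to 4, and 55.5, 60.1, 50.6 and 61.6 CPM in the endosperm replicates. Every endosperm sample was thus more than 10-fold above every pericarp sample (edgeR log2 fold change -4.07, SE 0.28, adjusted p = 4.81e-12). MIR167a had 0.276, 0.0661, 0.515 and 0.0220 CPM in pericarp, values that rest on 12, 4, 24 and 1 reads. The endosperm samples held 4.19, 3.78, 7.34 and 4.32 CPM of it (edgeR log2 fold change -4.52, SE 0.50, adjusted p = 1.68e-08). MIR167a varied widely among the pericarp samples, yet its highest pericarp value stayed below its lowest endosperm value.

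MIR167d had 0.0459, 0.0661, 0.0644 and 0.0661 CPM in pericarp, from 2 to 4 reads a sample, and 0.654, 0.407, 0.703 and 0.571 CPM in endosperm (edgeR log2 fold change -3.19, SE 0.42, adjusted p = 2.36e-07). On total reads without TMM factors its fold fell under 8. MIR167c had 2, 3, 0 and 0 reads in pericarp and 4, 5, 4 and 11 in endosperm (edgeR log2 fold change -2.61, SE 0.77, adjusted p = 0.00322). Without pericarp replicate 2 its log2 fold change was -3.30, which would make it the fourth MIR167 locus called 8-fold higher in endosperm.

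The other MIR167 loci went the opposite way. MIR167h had 1.59, 1.55, 1.80 and 1.81 CPM in pericarp against 0.0594, 0.0582, 0 and 0.0745 in endosperm (edgeR log2 fold change 5.01, SE 0.39, adjusted p = 8.14e-11). MIR167e had 1.36, 1.54, 1.46 and 1.34 CPM in pericarp against 0.0892, 0.116, 0.153 and 0.124 in endosperm (edgeR log2 fold change 3.54, SE 0.22, adjusted p = 2.09e-09). MIR167j had 0.391, 0.380, 0.386 and 0.507 CPM in pericarp against 0.0594, 0.175, 0.122 and 0.0745 in endosperm (edgeR log2 fold change 1.93, SE 0.37, adjusted p = 0.000149). In these 3 loci the 4 pericarp samples lay above the 4 endosperm samples, as they did in 40.3% of all tested features. At MIR167j pericarp replicate 4 stood above the other 3.

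Summed over the family, MIR167 transcripts reached 62.9 ± 3.70 CPM in endosperm and 7.24 ± 0.938 CPM in pericarp (SD, n = 4). MIR167g supplied 90.4% ± 3.21 of that sum in endosperm and 46.6% ± 5.64 in pericarp. Without MIR167g the family sums were 5.94 ± 1.70 CPM in endosperm and 3.83 ± 0.267 CPM in pericarp. Over all 154 listed loci the sums were 71.3 ± 4.64 CPM in endosperm and 25.7 ± 1.97 CPM in pericarp, and MIR167g supplied 79.8% ± 3.63 of the endosperm sum and 13.2% ± 2.59 of the pericarp sum. The higher precursor total of the endosperm therefore came from the reads of a single locus.

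MIR167a and MIR167g are neighbours. In the RefSeq annotation of Zm-B73-REFERENCE-NAM-5.0, another assembly than that of the files, no gene lies wholly between them. A gene that overlaps or spans either locus would not have been counted. The pair did not keep a fixed ratio of reads in pericarp, with 12 reads of MIR167a to 127 of MIR167g in replicate 1 but 1 to 206 in replicate 4. In endosperm the reads were 141 to 1866, 130 to 2065, 240 to 1655 and 174 to 2480.

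**Figure D1:**
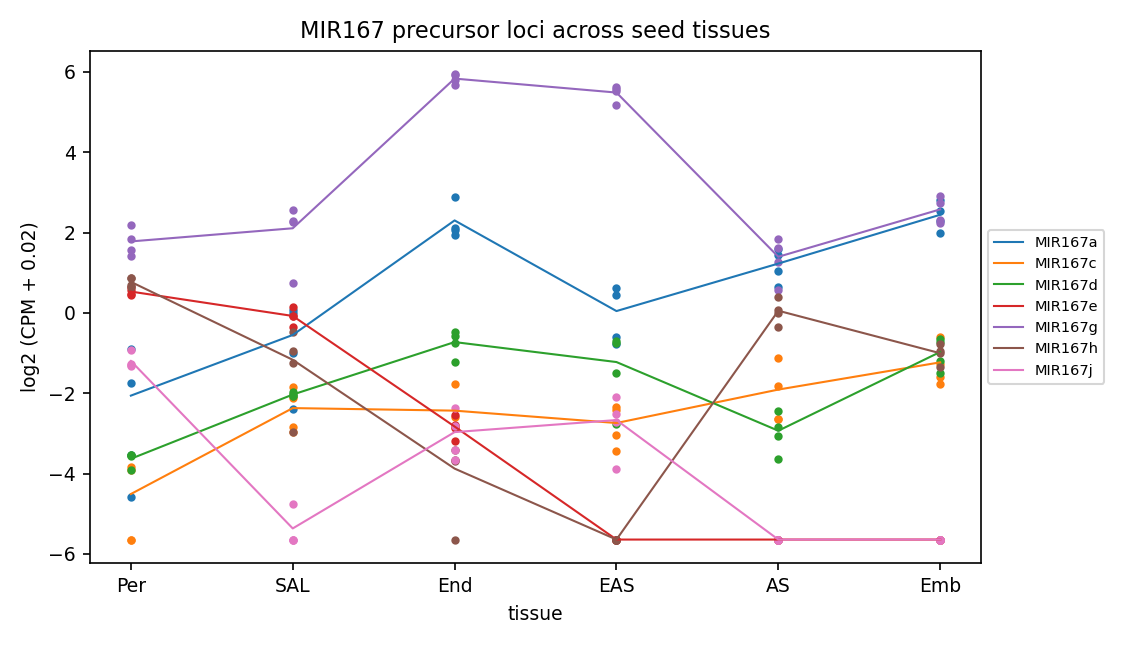
The 7 tested MIR167 loci in the 6 seed tissues, as log2 of CPM plus 0.02. Points are samples, 4 for each tissue, and lines join the tissue means. MIR167g is high in End and EAS, while MIR167e and MIR167h are higher in Per than in End and have 0 reads in EAS.

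The MIR167 loci also had unlike patterns in the other seed tissues, as the plot of this family by tissue shows. MIR167g had 44.7 ± 5.75 CPM in EAS, near its endosperm level of 56.9 ± 4.98, and 4.28 ± 1.82 in SAL, near its pericarp level of 3.41 ± 0.839. MIR167e had 0 reads in EAS, Emb and AS and was found, apart from pericarp and endosperm, in SAL at 0.928 ± 0.135 CPM. MIR167j had 0 reads in Emb and AS and 0.00423 ± 0.00846 CPM in SAL, and reached its highest mean, 0.416 ± 0.0606 CPM, in pericarp. MIR167h likewise had its highest mean in pericarp, followed by AS at 1.02 ± 0.213 CPM. MIR167a and MIR167c were highest in the embryo.

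Of 2 further families that act in auxin signalling, both tested MIR393 loci were higher in pericarp and neither tested MIR160 locus was called. Of all tested features 43.8% were called higher in pericarp. The MIR393 family targets transcripts of the auxin receptors, the TIR1/AFB F-box proteins. MIR393c had 1.49, 1.88, 2.34 and 0.881 CPM in pericarp and 1, 0, 0 and 1 reads in endosperm, a ratio of 118, for which counting error alone gave a 95% interval of 32.4 to 978 (edgeR adjusted p = 3.24e-13). MIR393a had 0.322, 0.364, 0.386 and 0.507 CPM in pericarp against 0.119, 0.204, 0.183 and 0.149 in endosperm (edgeR log2 fold change 1.25, SE 0.40, adjusted p = 0.00606). At neither MIR393 locus did the tissues overlap, and 40.3% of all tested features likewise had the 4 pericarp samples above the 4 endosperm samples. MIR160b, of a family that targets other auxin response factors, had 6, 5, 4 and 3 reads in pericarp against 0, 0, 1 and 3 in endosperm, without a call (edgeR log2 fold change 1.61, SE 0.77, adjusted p = 0.0553). That result depended on single samples: MIR160b was called without pericarp replicate 4 (edgeR adjusted p = 0.0493), without endosperm replicate 4 (log2 fold change 2.91, edgeR adjusted p = 0.0120) and on total reads without TMM factors (log2 fold change 2.17, edgeR adjusted p = 0.00857). MIR160d had 0 reads in all 8 samples.

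The MIR396 microRNA acts on transcripts of the growth-regulating factors (GRF), transcription factors that promote cell proliferation, and its 3 tested loci were each higher in pericarp. That direction was called in 43.8% of all tested features. MIR396d had 47, 73, 74 and 50 reads in pericarp and 0, 1, 0 and 1 in endosperm, a ratio of 87.7, for which counting error alone gave a 95% interval of 24.0 to 729 (edgeR adjusted p = 1.79e-12). MIR396a had 1.31, 0.942, 1.42 and 1.45 CPM in pericarp against 0.386, 0.378, 0.428 and 0.522 in endosperm (edgeR log2 fold change 1.55, SE 0.21, adjusted p = 7.02e-07). MIR396e had 0.712, 0.992, 1.01 and 0.947 CPM against 0.357, 0.291, 0.153 and 0.248 (edgeR log2 fold change 1.80, SE 0.27, adjusted p = 1.05e-06). The groups did not overlap at any of these loci, as in 40.3% of all tested features in that direction. MIR396a and MIR396e are neighbours in the RefSeq annotation, with no gene wholly between them, and their fitted folds were alike. Summed over the 8 listed MIR396 loci, the level was 3.61 ± 0.444 CPM in pericarp and 0.774 ± 0.0929 CPM in endosperm.

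Among families that act on regulators of organ form and polarity, some loci were higher in pericarp and others were not called. MIR166, whose microRNA targets the class III HD-ZIP transcription factors of the upper side of lateral organs, had 4 tested loci, of which 2 were 8-fold higher in pericarp and 2 were not called. MIR166h had 36, 37, 36 and 36 reads in pericarp and 2, 2, 1 and 1 in endosperm (edgeR log2 fold change 4.04, SE 0.39, adjusted p = 3.54e-10). MIR166a had 25, 16, 14 and 9 reads in pericarp and 0 in the 4 endosperm samples, so it was at least 15.7-fold higher against a floor of 3 reads over the group (edgeR adjusted p = 8.56e-06). MIR166c had means of 0.196 ± 0.0647 CPM in pericarp and 0.327 ± 0.115 in endosperm (edgeR adjusted p = 0.0886). MIR166d had 0.211 ± 0.0492 and 0.238 ± 0.151 CPM (edgeR adjusted p = 0.753). The members of the family therefore did not share a pattern: MIR166a and MIR166h had their highest mean in pericarp, MIR166c in SAL and MIR166d in AS.

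MIR319d, of a family that targets TCP transcription factors of leaf growth, had 38, 53, 38 and 24 reads in pericarp and 0 in endosperm (at least 36.3-fold higher, edgeR adjusted p = 2.29e-08). Its highest mean lay in the embryo, at 2.07 ± 0.166 CPM against 0.773 ± 0.166 in pericarp. MIR319a had 0 reads in the 8 samples. MIR159a, of the related family that targets GAMYB factors, had 1.42, 1.85, 1.55 and 1.85 CPM in pericarp against 0.0892, 0.146, 0.0611 and 0.0248 in endosperm (edgeR log2 fold change 4.38, SE 0.29, adjusted p = 1.22e-12). MIR159f differed by less, with 0.436, 0.446, 0.429 and 0.617 CPM against 0.208, 0.262, 0.214 and 0.224 (edgeR log2 fold change 1.07, SE 0.31, adjusted p = 0.00295). In EAS it was found at 2.24 ± 0.375 CPM, above both tissues.

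The MIR171 family acts on GRAS transcription factors. MIR171f had 1.86, 1.82, 2.38 and 2.14 CPM in pericarp and 0.208, 0.146, 0.336 and 0.174 in endosperm (edgeR log2 fold change 3.25, SE 0.27, adjusted p = 5.33e-08). It had 0 reads in EAS, Emb and AS and 0.344 ± 0.153 CPM in SAL, so pericarp held its highest mean. Its relative MIR171e was slightly higher in endosperm, with 0.713, 0.873, 1.01 and 1.44 CPM against 0.482, 0.579, 0.579 and 0.418 in pericarp (edgeR log2 fold change -0.97, SE 0.31, adjusted p = 0.00672). That call was lost without endosperm replicate 4 (edgeR adjusted p = 0.0503) and on total reads without TMM factors (edgeR adjusted p = 0.295). MIR171d had 1 read in the 8 samples.

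MIR164b, of the family that targets NAC transcription factors of organ boundaries, had 9, 5, 6 and 5 reads in pericarp and 0, 0, 0 and 1 in endosperm, a ratio of 18.0, for which counting error alone gave a 95% interval of 2.94 to 738 (edgeR adjusted p = 0.000489). The lower bound of that interval is under 8, and AS held far more of it, at 5.39 ± 1.11 CPM against 0.132 ± 0.0533 in pericarp. MIR168, whose microRNA targets the transcript of ARGONAUTE1, the main protein of the microRNA pathway, had both of its loci higher in pericarp, the direction called in 43.8% of all tested features. MIR168a had 23, 20, 21 and 25 reads against 0, 2, 2 and 2 in endosperm (edgeR log2 fold change 3.34, SE 0.51, adjusted p = 7.18e-07). MIR168b had 88, 90, 96 and 116 reads against 10, 13, 8 and 10 (edgeR log2 fold change 2.78, SE 0.27, adjusted p = 2.42e-09). At both loci the groups were far apart, although the fold of MIR168a fell under 8 without endosperm replicate 1, the sample with 0 reads.

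**Figure D2:**
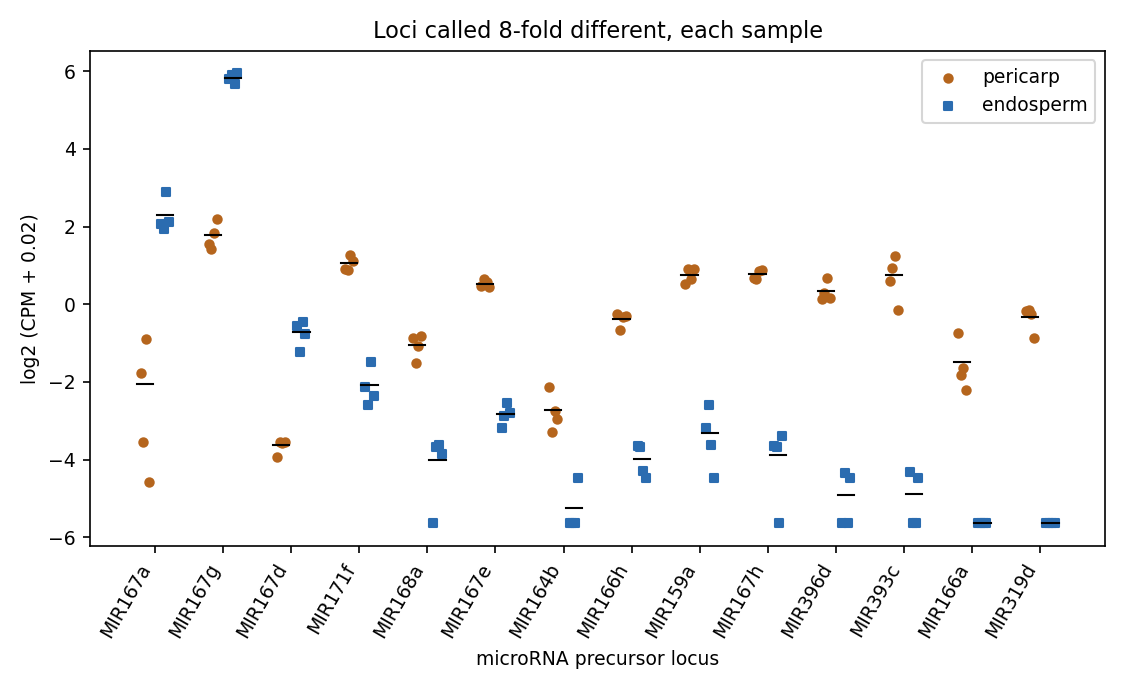
The 14 microRNA loci called 8-fold different, as log2 of CPM plus 0.02 in each of the 4 pericarp samples (circles) and 4 endosperm samples (squares), with short lines at the means. MIR167a, MIR167g and MIR167d are higher in endosperm, the other 11 in pericarp, and at each locus the groups do not overlap. Among all features called 8-fold, 2852 of 2899 higher in pericarp and 814 of 871 higher in endosperm did not overlap either. Points at the bottom are samples with 0 reads.

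A few loci outside the MIR167 family were higher in endosperm, by less than 8-fold. MIR398b, whose microRNA targets copper/zinc superoxide dismutases, had 1.69, 3.90, 2.93 and 2.43 CPM in endosperm and 0.551, 0.331, 0.794 and 0.286 in pericarp (edgeR log2 fold change -2.50, SE 0.46, adjusted p = 3.68e-05). Its level in EAS, 0.173 ± 0.103 CPM, was below both tissues. MIR156j, of the family that holds plants in the juvenile phase by targeting SPL transcription factors, had 24, 19, 18 and 31 reads in endosperm and 8, 17, 3 and 11 in pericarp (edgeR log2 fold change -1.70, SE 0.34, adjusted p = 5.86e-05). The other 6 tested MIR156 loci were not called and had at most 4 reads in any of the 8 samples. MIR169o, of the family that targets NF-YA transcription factors, had 3, 2, 5 and 4 reads in endosperm and 2, 1, 2 and 1 in pericarp (edgeR log2 fold change -1.61, SE 0.62, adjusted p = 0.0178). That call was lost without pericarp replicate 2 (edgeR adjusted p = 0.0640), without endosperm replicate 3 (edgeR adjusted p = 0.0699) and on total reads without TMM factors (edgeR adjusted p = 0.125).

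MIR169j of the same family was higher in pericarp, with 0.505, 0.612, 0.494 and 0.815 CPM against 0.0297, 0.116, 0.183 and 0.348 in endosperm (edgeR log2 fold change 1.77, SE 0.38, adjusted p = 0.000191). MIR2118c, of a family known in grasses for starting the phased small RNAs of anthers, had 11, 16, 18 and 12 reads in pericarp and 2, 1, 4 and 9 in endosperm (edgeR log2 fold change 1.34, SE 0.44, adjusted p = 0.00855). Both had higher means still in SAL.

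In all, 11 of the 48 tested loci, or 22.9%, were called 8-fold higher in pericarp, beside 10.9% of all 26543 tested features. Toward the endosperm 3 loci, or 6.25%, were called 8-fold, beside 3.28% of all features. At any fold 27 loci, or 56.25%, were called, fewer than the 81.6% of all features: 19 loci or 39.6% toward pericarp, beside 43.8%, and 8 loci or 16.7% toward endosperm, beside 37.8%. More than 3 reads over the 4 samples of pericarp or of endosperm were held by 40 of the 48 loci and by 26237 of the 26543 features. Among the other 8 loci, 4 had 0 reads in the pericarp and endosperm samples and could not be called. Whether low counts account for the lower share was not tested. The 4 pericarp samples lay all above the 4 endosperm samples in 19 loci, or 39.6%, beside 40.3% of all features. The reverse held in 8 loci, or 16.7%, beside 34.1%. These 27 loci were the same ones that were called. Each had the same sign on all 4 harvest days, which follows from the lack of overlap and adds nothing to it. Overlap was judged on TMM-scaled CPM, and on total gene reads the groups overlap at MIR169o and MIR171e. MIR169o had 2 reads of 37.6 M in pericarp replicate 1 and 2 of 44.3 M in endosperm replicate 2. MIR171e had 27 reads of 40.7 M in pericarp replicate 3 and 24 of 46.7 M in endosperm replicate 1. The median log2 fold change was 1.24 over the 48 loci and 0.12 over all features. With loci at 0 reads in a tissue set to their bound, and 8 loci at or under 3 reads in both tissues left out, it was again 1.24.

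Of the 21 uncalled loci, 10 had their highest mean in the embryo, 8 in AS and 3 in SAL, and none in pericarp or endosperm. The low-count filter ran over all 6 tissues, so loci almost without reads in pericarp and endosperm were tested only through another tissue. Where the uncalled loci peak is therefore partly set by the filter. Among the 21 uncalled loci were MIR172e, of the family that targets AP2 factors, with 0.0935 ± 0.0370 CPM in pericarp and 0.0966 ± 0.0956 in endosperm, and MIR169c, with 0.368 ± 0.146 and 0.577 ± 0.0578 (edgeR adjusted p = 0.0563). MIR169c was called as higher in endosperm with a replicate block on the 8 samples (log2 fold change -0.73, edgeR adjusted p = 0.0331), without pericarp replicate 3 (log2 fold change -0.93, edgeR adjusted p = 0.0104) and under 3 other alternatives, while on total reads without TMM factors its log2 fold change was -0.032. Another 4 of the 21 had 0 reads in the 8 samples, namely MIR160d, MIR164g, MIR319a and MIR399j. Of the 19 loci higher in pericarp, 10 had their highest mean there, 5 in SAL, 2 in Emb, 1 in AS and 1 in EAS. Of the 8 higher in endosperm, 2 had their highest mean there, 3 in Emb, and 1 each in AS, EAS and SAL. Over all tested features 23.1% had their highest mean in pericarp and 13.8% in endosperm. The filter bears on the called loci too. MIR166a, MIR166h, MIR393c and MIR396d had too few reads elsewhere and passed it only through pericarp, so their peak there is set by the filter. The remaining 106 loci were too low to be tested: 73 had 0 reads in the 8 samples and 33 had a read, with at most 40 in all.

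All 48 tested loci matched a RefSeq entry by name, and 39 of them overlap another annotated gene there, 35 of these an lncRNA and 4 a protein-coding gene. Overlap was taken without regard to strand. Reads of an overlapping gene may have been counted to a precursor, and since libraries were not stranded this holds for a gene on either strand. A count of 3 reads corresponded to 0.0496 to 0.0689 CPM in pericarp and to 0.0745 to 0.0917 CPM in endosperm, so lower values of single samples carry little weight.

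Among all features, the calls at 8-fold or more numbered 2899 toward pericarp and 871 toward endosperm. The lead of the pericarp grew with the fold required. At 2-fold or more, 7923 features were higher in pericarp and 5171 in endosperm, so that 60.5% of calls were pericarp-high. At 8-fold or more this share was 76.9%, at 32-fold or more 91.4% (1071 against 101), and at 128-fold or more 99.2% (386 against 3). Of the pericarp-high features, 295 had 0 reads in the 4 endosperm samples, where a fitted fold is no bound, while 14 endosperm-high features had 0 reads in pericarp. With such features at the bound set by 3 reads over the group, the counts were 2816 and 863 at 8-fold or more, and 240 and 3 at 128-fold or more. The balance also depended on scaling. On total reads without TMM factors, which moved the median log2 fold change of all features from 0.12 to 0.74, the 8-fold counts were 3887 and 447, so that 89.7% were pericarp-high.

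**Figure D3:**
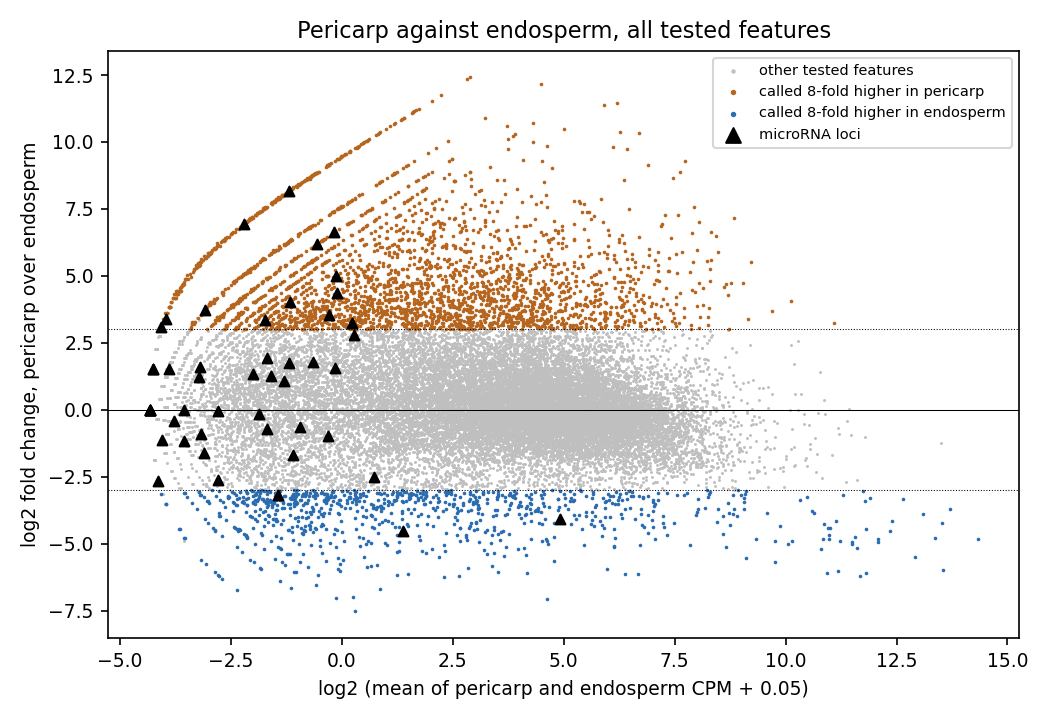
Fitted log2 fold change of pericarp over endosperm against log2 of the mean CPM of both tissues plus 0.05, for the 26543 tested features. Dotted lines mark 8-fold, and coloured points are the 2899 and 871 features called beyond them. Pericarp-high features reach larger folds, endosperm-high features reach higher CPM, and the 48 microRNA loci (triangles) lie at low levels apart from MIR167g.

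The endosperm-high features were fewer but took more reads. In endosperm replicates 1 to 4 they made up 30.6%, 26.6%, 30.5% and 28.6% of all gene reads. The pericarp-high features made up 11.29%, 11.05%, 11.24% and 12.05% of the reads of the pericarp samples. A mean of 1000 CPM or more in the higher tissue was reached by 46 of the 871 endosperm-high features, or 5.28%, and by 6 of the 2899 pericarp-high features, or 0.207%. At 100 CPM or more these shares were 16.6% and 8.04%. The median level of a called feature differed less, with 4.04 CPM in endosperm for the endosperm-high set and 4.82 CPM in pericarp for the pericarp-high set. In the lower tissue the medians were 0.273 and 0.158 CPM, in that order.

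Reads were spread over more features in pericarp. Reads of the 10 most abundant features took 3.38% ± 0.265 of a pericarp sample and 15.1% ± 0.780 of an endosperm sample, a difference of -11.7 percentage points. A sample's reads reached 50% of its total with 1992 to 2055 features in pericarp and with 482 to 617 in endosperm. At 1 CPM or more on unscaled library sizes, 21452, 21092, 21357 and 21715 features were detected in pericarp and 18709, 19085, 19054 and 19122 in endosperm, a mean difference of 2411.5. With TMM factors of 0.721 to 0.775 in endosperm and 1.12 to 1.16 in pericarp, this cutoff was stricter for endosperm on the TMM scale. The count was not made on that scale. Reads taken by the most abundant features lower the CPM of all others, so the 2 measures are not independent. Both measures separated the tissues without overlap (exact permutation p = 0.0286, two-sided, the smallest that 4 against 4 samples can give, and 0.0286 after adjustment over 2 tests). Paired over the harvest days as a replicate block, the exact p was 0.125 for each, the smallest that 4 pairs can give. Alignment records without a unique position, which were not counted to genes, made up 15.0% ± 1.01 of the rows in endosperm and 8.55% ± 0.252 in pericarp. Families of near-identical genes lose reads that way, and the part of this in the differences was not tested.

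**Figure D4:**
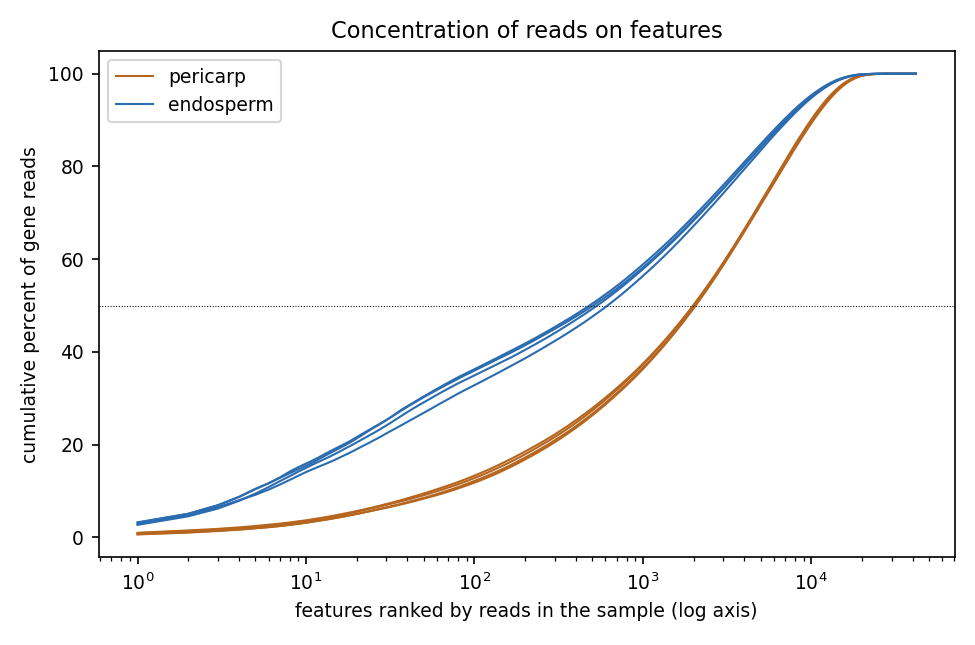
Cumulative percent of gene reads against the number of features, ranked by reads within each sample, on a log axis, with 1 line for each of the 4 pericarp and 4 endosperm samples. The dotted line at 50% is crossed at 482 to 617 features in endosperm and at 1992 to 2055 in pericarp.

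Features that drew many reads show this contrast. Zm00001d020592 had 44779.4, 36485.5, 42569.4 and 35587.8 CPM in endosperm and 1200.7, 717.8, 1861.2 and 1886.9 in pericarp (edgeR log2 fold change -4.81, SE 0.49, adjusted p = 5.1e-09). Zm00001d010321 had 25000.0, 25546.1, 23849.3 and 24385.0 CPM in endosperm and 1911.3, 1429.5, 2117.5 and 2128.7 in pericarp (edgeR log2 fold change -3.70, SE 0.16, adjusted p = 1.29e-15). Both were thus abundant in pericarp as well, and lowest there in replicate 2. Zm00001d025059 had 3300.5, 3832.9, 4015.3 and 4564.8 CPM in pericarp and 316.3, 384.6, 434.7 and 525.0 in endosperm (edgeR log2 fold change 3.24, SE 0.59, adjusted p = 2.94e-05). SAL held a similar mean of 3987 ± 1554 CPM, while EAS, Emb and AS held 3.24, 2.57 and 1.27 CPM. Zm00001d029628 had 1710.5, 1916.2, 2223.2 and 2620.0 CPM in pericarp and 104.8, 141.0, 142.2 and 121.8 in endosperm (edgeR log2 fold change 4.05, SE 0.24, adjusted p = 3.25e-13).

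Endosperm-high transcripts were not absent from the pericarp samples. The 100 endosperm-high features with the highest endosperm level summed in pericarp replicates 1 to 4 to 4.67%, 3.04%, 6.48% and 6.04% of their mean endosperm sum. Replicate 2 was the lowest of the 4 pericarp samples in 82 of these 100 features, while replicate 3 was the highest in 46 and replicate 4 in 45. These features come from the same 4 samples and are not independent. The like count over all features is not given here, so the order is not shown to be particular to them. MIR167g stood at 5.12%, 4.65%, 6.22% and 7.97% of its endosperm mean in the same samples, also lowest in replicate 2. MIR167a, at 5.62%, 1.35%, 10.5% and 0.449%, did not follow that order. The same 100 features summed to 3.79% to 3.99% of the endosperm sum in Emb, 4.06% to 4.70% in AS, 6.29% to 9.18% in SAL and 46.3% to 71.8% in EAS. In the opposite direction, the 100 pericarp-high features with the highest pericarp level summed in the endosperm samples to 4.62% to 6.14% of their pericarp sum, and in SAL to 18.2% to 34.7%. Whether endosperm tissue in the pericarp samples, or pericarp tissue in the others, had a part in these levels was not tested. The 8-fold count toward endosperm was 938, 788, 936 and 1008 without pericarp replicate 1, 2, 3 or 4, lowest without replicate 2 but otherwise not in the order of these levels.

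Elsewhere in the seed, the pericarp-high features were shared most with SAL and the embryo tissues, and the endosperm-high features with EAS. Of the 2899 pericarp-high features, 2241 or 77.3% had their highest mean in pericarp, while over all tested features 23.1% did. On a log scale the mean was nearer the pericarp than the endosperm level for 36.9% of them in SAL, 34.8% in Emb and 899 features in AS, but for 4.14% in EAS. Of the 871 endosperm-high features, 557 or 63.9% had their highest mean in endosperm and 251 or 28.8% in EAS, while over all tested features 13.8% and 20.0% did. The mean was nearer the endosperm level for 84.6% of them in EAS, 29.5% in SAL, 13.1% in Emb and 11.6% in AS. As a share of gene reads, the pericarp-high set made up 11.4% ± 0.440 in Per, 2.98% ± 0.580 in SAL, 2.50% ± 0.193 in AS, 2.31% ± 0.0626 in Emb, 0.416% ± 0.0615 in End and 0.362% ± 0.0372 in EAS. The endosperm-high set made up 29.1% ± 1.92 in End, 19.9% ± 2.63 in EAS, 3.87% ± 0.536 in SAL, 2.29% ± 0.671 in Per, 1.95% ± 0.102 in AS and 1.87% ± 0.0291 in Emb. Since the sets were chosen on pericarp and endosperm, the values in those tissues are a description. The labels do not say whether the endosperm samples held EAS or SAL tissue.

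**Figure D5:**
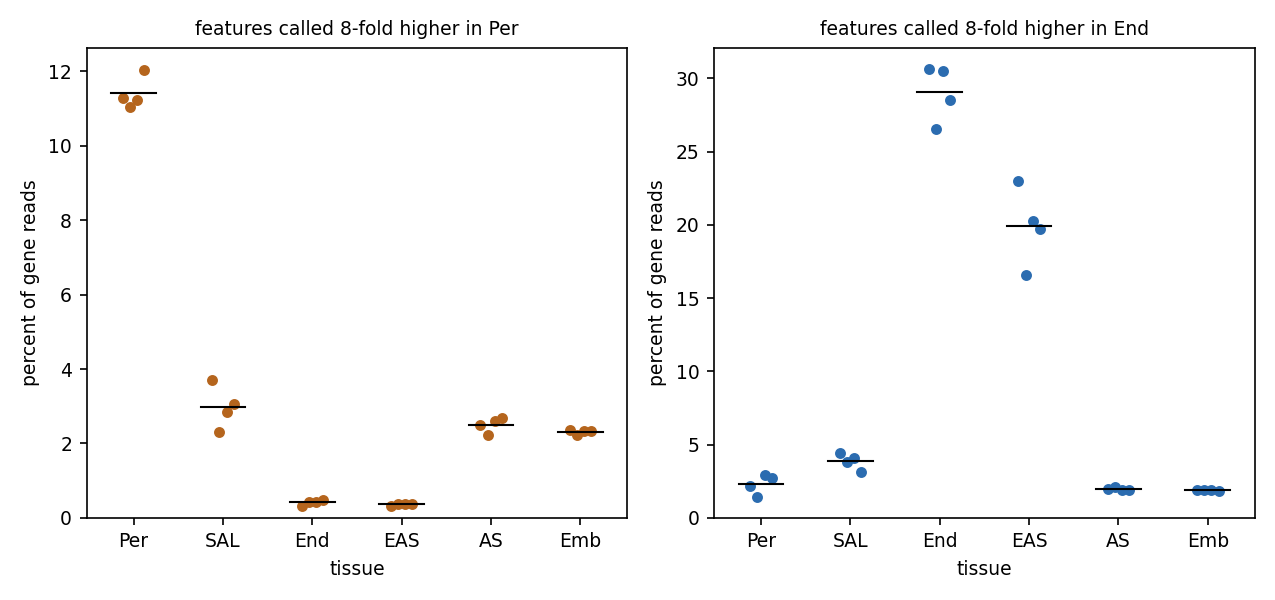
Percent of gene reads in the features called 8-fold higher in Per (left) and in End (right), in each of the 4 samples of the 6 tissues, with lines at the means. After Per, the left set is highest in SAL at 2.98%. After End, the right set is highest in EAS at 19.9%.

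The differences recurred on each harvest day. Of the 2899 pericarp-high features, 2867 were higher in pericarp in all 4 same-day pairs of samples, with a median log2 difference of 4.04, 3.69, 3.74 and 3.83 from the first to the last day. Of the 871 endosperm-high features, 862 were higher in endosperm in all 4 pairs, with medians of -3.45, -3.70, -3.28 and -2.99. The pair of 18 May, with pericarp replicate 4, thus gave the smallest endosperm-high differences, and 432 of the 871 features passed 8-fold in it against 650 in the pair of 1 May. These pairs are part of the samples on which the sets were called, so the counts describe their spread and are no separate test.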

How the data were processed

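Per the labels, RNA was poly(A)-selected and sequenced as paired ends from unstranded TruSeq libraries. TopHat2, Bowtie2 and the build B73 RefGen_v4 appear in the submitters' processing notes, and the sources used here give no versions or counting settings. The authors deposited raw whole-number counts of reads per feature in htseq-count's format, and its summary rows were left out of library sizes and tests.

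Features passing filterByExpr (minimum count 10, tissue as group) were fitted over the 24 samples with edgeR 4.0.16 in R 4.3.3, by quasi-likelihood with TMM factors (1.12 to 1.16 in pericarp, 0.721 to 0.775 in endosperm), and p-values were adjusted by Benjamini-Hochberg over 26543 features. Single measures were compared by exact permutation. Where a tissue held 0 reads, folds are bounds against 3 reads over its 4 samples, and with 1 to 3 reads a ratio has a 95% interval, both covering counting error only. The rule for identifiers took, among features called 8-fold with no overlap and a mean of 20 CPM or more in the higher tissue, the 2 per direction with the highest level. The comparison, loci and lists were chosen with earlier results of these data known. Same-numbered pericarp and endosperm samples share a harvest day in the labels, which pairs them, and their deviations from the tissue means correlated at 0.0307 to 0.290 (other numbers -0.231 to 0.189). In the block over 24 samples, EAS replicate 3 is labelled with another day (5 April) and SAL replicate 4 with none. Replicates differed beyond counting noise (chi-square per degree of freedom at least 15.5). Labels do not say whether replicates came from separate plants, so p-values reflect only the spread of these samples, which may be technical. DESeq2 1.42.0 was among the alternatives.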

Additional observations from a re-analysis of the deposited data

Results flagged for a closer look

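Of 69 groups of 4 samples examined, 6 held a sample far from the other 3, and chance flags about 1 in 20 groups. In pericarp these were MIR159f in replicate 4 at 0.617 CPM, MIR167j in replicate 4 at 0.507 CPM and MIR2118c in replicate 3 at 0.386 CPM, each above the other 3 samples, and MIR167d in replicate 1 at 0.0459 CPM, below them. In endosperm they were MIR167a in replicate 3 at 7.34 CPM, above the others, and the number of features at 1 CPM or more in replicate 1, 18709, below the others. The MIR167d value rests on 2 reads against 3 or 4 in the other pericarp samples.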

How the results depend on the processing

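The 8-fold counts ranged over single left-out samples from 2807 to 3085 toward pericarp and from 788 to 1008 toward endosperm, and the calls at any fold from 21344 to 21509. The count toward endosperm was 1309 without a low-count filter and 447 without TMM factors, an alternative chosen after seeing the data. Tested against a 2-fold change, 10865 features passed at any fold. Toward pericarp and endosperm the 8-fold counts were 2304 and 602 with a filter of 1 CPM in 4 samples. With the 8 samples fitted alone they were 2564 and 742. With that filter, 7 microRNA loci were 8-fold higher in pericarp, because MIR166a, MIR166h, MIR168a and MIR393c were no longer tested. Toward endosperm 2 were left, because MIR167d was no longer tested. Among the 27 called loci, MIR164b, MIR166a, MIR167c and MIR169o were not tested when the 8 samples were fitted alone, with or without a block. With the replicate block, the paired difference was -11.7 percentage points in the 10 most abundant features and 2411.5 in features at 1 CPM, both with an exact p of 0.125, the smallest that 4 pairs can give. The replicate block in the edgeR fit of 24 samples changed no call of the 27 loci, and that of 8 samples no call of those it tested, but it added MIR169c. Leaving out 1 sample, these differences ranged from -12.1 to -11.5 and from 2307.83 to 2515.5, with an exact p of 0.0571, the smallest for 3 against 4. Reversals occurred in 5 uncalled loci. Over left-out samples their log2 fold changes ran from -0.38 to 0.26 for MIR166d, -0.42 to 0.46 for MIR172e, -1.62 to 0.12 for MIR398a, -1.28 to 0.13 for MIR408b and -0.40 to 0.77 for MIR528a. Without TMM factors they were 0.43 for MIR166d, 0.56 for MIR172e and 0.12 for MIR398a, and MIR528a was at -0.060 with upper-quartile factors and -0.033 with the replicate block. The cause of these was not tested. Tested against 2-fold, MIR159f, MIR169o, MIR171e, MIR2118c and MIR393a were no longer called. Besides MIR160b and MIR169c, the uncalled loci called under an alternative were MIR156e without pericarp replicate 2 or 3 or without TMM factors, MIR156i without pericarp replicate 4, MIR166c without endosperm replicate 1, and MIR394b without TMM factors. The gene lists planned were not run, as 0 identifiers matched.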

Other observations

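Some microRNA loci under the low-count filter still had more reads in pericarp, and they are given as values with no test. At MIR156d the tissues overlapped and the levels were alike, with 2, 1, 2 and 7 reads in pericarp and 3, 3, 1 and 1 in endosperm. MIR164c, a relative of MIR164b, had 6, 10, 5 and 9 reads in pericarp and 0 in the endosperm samples, at least 7.15-fold higher. MIR399c, of the family that targets the phosphate regulator PHO2, had 9, 5, 4 and 7 reads in pericarp and 0, 0, 0 and 1 in endosperm, a ratio of 18.0, for which counting error alone gave a 95% interval of 2.94 to 738. MIR396c had 8, 6, 8 and 8 reads in pericarp and 0, 3, 3 and 4 in endosperm, the direction of the 3 tested MIR396 loci. MIR162, whose microRNA targets the transcript of DICER-LIKE1, the enzyme that cuts microRNA precursors, had 4, 5, 2 and 2 reads in pericarp and 0, 0, 1 and 1 in endosperm. Of the 154 listed loci, 69 had a read in pericarp and 57 in endosperm, with 20 that had a read in pericarp and 0 in endosperm and 8 the reverse. Most of these 20 and 8 loci rest on 1 to 3 reads, so they are not shown to be absent from either tissue. Over all features, 29120 to 29429 had a read in a pericarp sample and 27615 to 28351 in an endosperm sample.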
